A study of Saccharomyces cerevisiae with 6 samples.

Results

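The 10 genes described here belong to the phosphate system of budding yeast: the transporter genes PHO84 (YML123C), PHO89 (YBR296C) and GIT1 (YCR098C), the phosphatase genes PHO5 (YBR093C), PHO11 (YAR071W) and PHO8 (YDR481C), the polyphosphate synthesis gene VTC3 (YPL019C), and the regulator genes PHO4 (YFR034C), PHO81 (YGR233C) and SPL2 (YHR136C). They were picked out by systematic ORF name, and the list was drawn up with earlier results of these data known. Each was read by 1 probe set, which gives 10 of the 5705 probe sets and 10 of the 5657 genes measured. Messenger RNA came from 3 cultures of the wild-type Saccharomyces cerevisiae strain CEN.PK 113-7D with BSA and from 3 cultures of the same strain without BSA, which served as controls. All were grown aerobically at 30 °C in baffled shake flasks, and 1 Affymetrix array was hybridised per culture. The labels write only BSA, which usually stands for bovine serum albumin. Neither its dose nor the phosphate content of the medium is stated in the labels. The protocol places sampling at 48 h, whereas the design text speaks of an early phase of growth on glucose.

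Yeast cells take up inorganic phosphate through transporters of high and of low affinity, and release it from organic compounds with secreted acid phosphatases. When phosphate is scarce, the inhibitor Pho81 blocks the cyclin-dependent kinase pair Pho80-Pho85, the transcription factor Pho4 stays in the nucleus, and with its partner Pho2 it switches on PHO84, PHO5, SPL2, VTC genes and PHO81 itself. When phosphate is plentiful, Pho4 is phosphorylated and exported, and surplus phosphate is stored as polyphosphate in the vacuole. These are background facts on the pathway. Phosphate itself was not measured here.

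With BSA, PHO8, PHO84, PHO4 and VTC3 had higher transcript levels, and PHO89, GIT1, PHO81 and PHO11 had lower ones. PHO5 and SPL2 did not pass the test. RNA was taken from whole cultures, so more RNA of a gene per cell and more cells that express it cannot be told apart. In all, limma called 8 of the 10 genes, 4 up and 4 down, at a threshold of 0.05 on the Benjamini-Hochberg adjusted p, against 75.4% of all 5657 genes (28.3% higher and 47.1% lower). The share called was therefore near that of the whole array. The median log2 fold change of the 10 genes was -0.0022, against -0.13 for all genes, and the median of its absolute size was 0.53, against 0.38 for all genes. The same 8 genes showed no overlap between the arrays with and without BSA, again 4 in each direction, against 79.5% of all genes (29.6% higher and 49.9% lower). A called change of at least 2-fold was seen in 3 members, PHO84 and PHO8 higher and PHO89 lower, against 7.04% of all genes higher and 1.96% lower by that much.

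**Figure D1:**
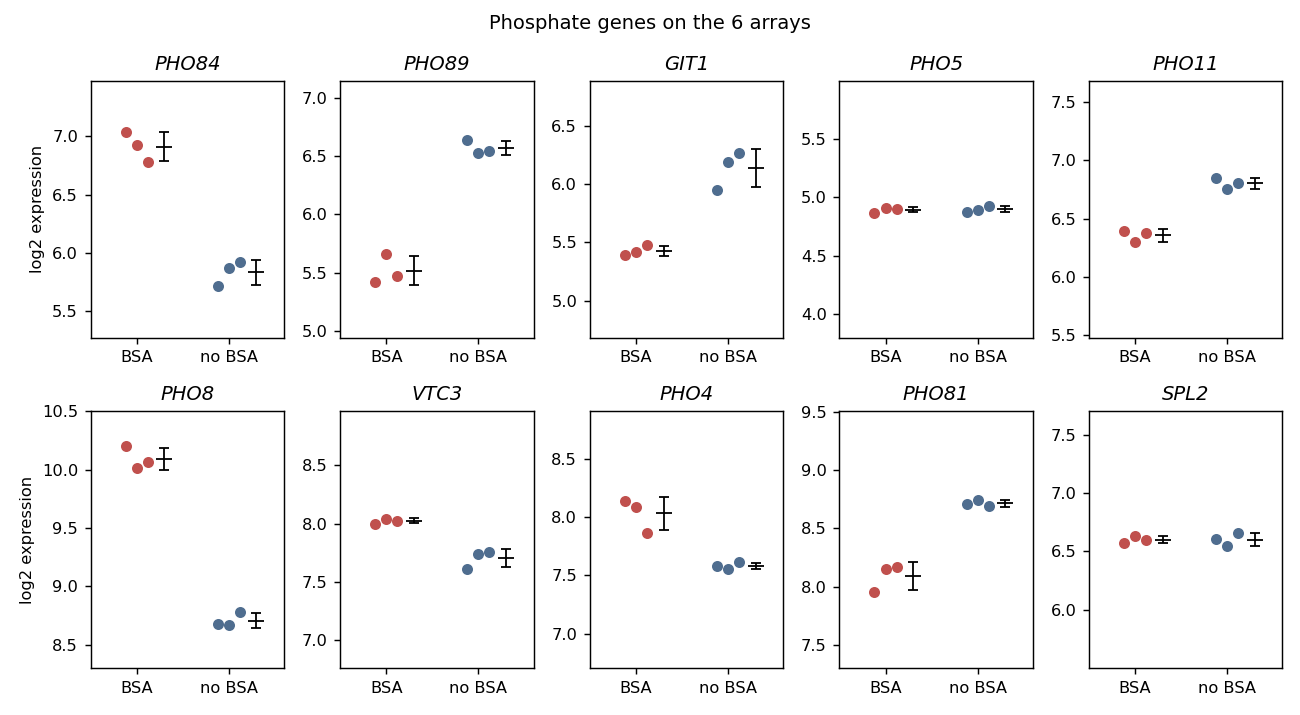
Log2 expression (vertical axis, the same span of 2.2 log2 units in every panel) of the 10 phosphate genes on each of the 3 arrays with BSA and the 3 arrays without. Points are single arrays and the bar beside them is the mean ± SD (n = 3). The groups part in 8 panels and overlap for PHO5 and SPL2.

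The transporter genes moved in opposite directions. PHO84 encodes the main high-affinity phosphate transporter of the plasma membrane, which carries phosphate together with protons. Its log2 expression was 7.03, 6.92 and 6.78 on the arrays with BSA, against 5.72, 5.87 and 5.92 without BSA. All 3 values with BSA lay above all 3 without. The rise was 2.11-fold (log2 fold change 1.08 ± 0.083 SE, limma adjusted p = 2.20e-05), which is at percentile 93.8 of the changes of all genes. The probe set was brighter than 24.5% to 34.3% of genes with BSA, and dim without BSA, brighter than only 5.92% to 6.95% of them.

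PHO89 encodes the other high-affinity transporter, which carries phosphate together with sodium and is known from cells at alkaline pH. It was at 5.42, 5.66 and 5.47 with BSA, against 6.64, 6.53 and 6.54 without. The groups stood about as far apart as for PHO84, but with BSA on the low side. The fall was 2.07-fold (log2 fold change -1.05 ± 0.073 SE, limma adjusted p = 1.42e-05), at percentile 1.6 of all genes. Set against PHO89 on the same array, PHO84 rose by 2.13 ± 0.15 (log2, SE, n = 3 arrays per group), a difference that no scaling by 1 factor per array can alter. This pair was chosen after the values were seen, so no test is given.

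GIT1 encodes a permease for glycerophosphoinositol and glycerophosphocholine, organic compounds from which phosphate can be drawn. Its values were 5.39, 5.42 and 5.48 with BSA, against 5.95, 6.19 and 6.27 without. The controls spread more widely than the cultures with BSA (SD 0.042 with BSA and 0.165 without), yet the groups did not overlap. GIT1 fell 1.63-fold (log2 fold change -0.71 ± 0.084 SE, limma adjusted p = 0.000161). PHO89 and GIT1 were below the first quartile of the signal on all 6 arrays, and PHO84 on 4 of the 6. The deposited table has no detection calls, and the part of dim signal in these 3 changes was not tested.

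Among the phosphatase genes, that of the vacuolar enzyme rose. Of those of the secreted enzymes, PHO11 was dim and fell, and PHO5, read near the bottom of every array, did not pass. PHO8 encodes the alkaline phosphatase of the vacuole. It was at 10.20, 10.02 and 10.07 with BSA, against 8.68, 8.67 and 8.78 without. With BSA it was brighter than 93.6% to 94.3% of genes, and without BSA than 79.5% to 81.4%. It had the largest change of the 10, a rise of 2.62-fold (log2 fold change 1.39 ± 0.065 SE, 95% interval 1.24 to 1.54, limma adjusted p = 3.07e-06), at percentile 96.5 of all genes.

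PHO11 encodes a minor secreted acid phosphatase that phosphate represses. Its near-identical copy PHO12 had no probe set of its own here, and the probe set of PHO11 is of the type that can share signal between genes, so the reading may hold both. The values were 6.40, 6.30 and 6.38 with BSA, against 6.85, 6.75 and 6.81 without. The groups were narrow and did not overlap. The fall was 1.36-fold (log2 fold change -0.45 ± 0.053 SE, limma adjusted p = 0.000162), and the signal was below the first quartile on all 6 arrays.

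PHO5, the gene of the major secreted acid phosphatase and the textbook reporter of the pathway, was read near the bottom of every array. It was at 4.87, 4.91 and 4.90 with BSA, against 4.88, 4.89 and 4.93 without. The lowest signal of any gene was 4.82 to 4.86 on the 6 arrays, and PHO5 was brighter than only 3 to 18 of the 5657 genes. The groups overlapped fully (log2 fold change -0.0032, 95% interval -0.11 to 0.10, limma adjusted p = 0.951). Whether this probe set read PHO5 transcripts above background was not tested. PHO3, the neighbouring acid phosphatase gene, which phosphate does not repress, had means of 5.90 ± 0.020 with BSA and 5.99 ± 0.099 without (SD, n = 3) and did not pass either (limma adjusted p = 0.211). Without control replicate 1, PHO3 was called lower (adjusted p = 0.0255). Its signal was below the first quartile on all 6 arrays.

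VTC3 encodes a subunit of the vacuolar transporter chaperone complex, which makes polyphosphate and passes it into the vacuole. It was at 8.0, 8.04 and 8.03 with BSA, against 7.62, 7.74 and 7.76 without. The 3 cultures with BSA agreed closely, and all lay above the controls. The rise was small, 1.25-fold (log2 fold change 0.32 ± 0.055 SE, limma adjusted p = 0.00113), or 0.45 relative to the median of all genes.

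The regulator genes did not move as one. PHO4 encodes the transcription factor of the pathway. Its values were 8.14, 8.09 and 7.87 with BSA, against 7.58, 7.56 and 7.61 without. All cultures with BSA were above all controls, with BSA replicate 3 the nearest to them. The rise was 1.36-fold (log2 fold change 0.45 ± 0.076 SE, limma adjusted p = 0.00104). Among the members, replicate 1 with BSA was the highest and replicate 3 with BSA the lowest for PHO84 and PHO4. The same order held for PHO2, the gene of the partner of Pho4, and for VTC1 and VTC4, described below. It was the reverse for GIT1 and PHO81 and a different one for the other members. How common each order was over all genes was not counted. SND1, PAM16 and EMI2, described below as the genes nearest to PHO84, had the same order as PHO84. They were picked for likeness to PHO84 over these same arrays, so their order adds nothing. A link between these genes was not tested.

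PHO81 encodes the inhibitor of the Pho80-Pho85 kinase and is itself a known target of Pho4. It was at 7.95, 8.15 and 8.17 with BSA, against 8.71, 8.74 and 8.69 without. The controls agreed to within an SD of 0.028, and every culture with BSA lay below them. PHO81 fell 1.54-fold (log2 fold change -0.62 ± 0.068 SE, limma adjusted p = 0.000111). PHO4 and PHO81 were read at mid to high positions on the arrays, with PHO4 brighter than 48.4% to 66.3% of genes and PHO81 brighter than 61.8% to 80.8%.

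SPL2, which encodes a small protein that damps low-affinity phosphate uptake and is known as a strong target of Pho4, was at 6.57, 6.63 and 6.60 with BSA, against 6.61, 6.55 and 6.65 without. The groups overlapped (log2 fold change -0.0012, 95% interval -0.12 to 0.12, limma adjusted p = 0.984). The interval leaves no room for a change of the size seen in PHO84 or PHO81 in the values as deposited, although this probe set also lay below the first quartile on all 6 arrays.

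**Figure D2:**
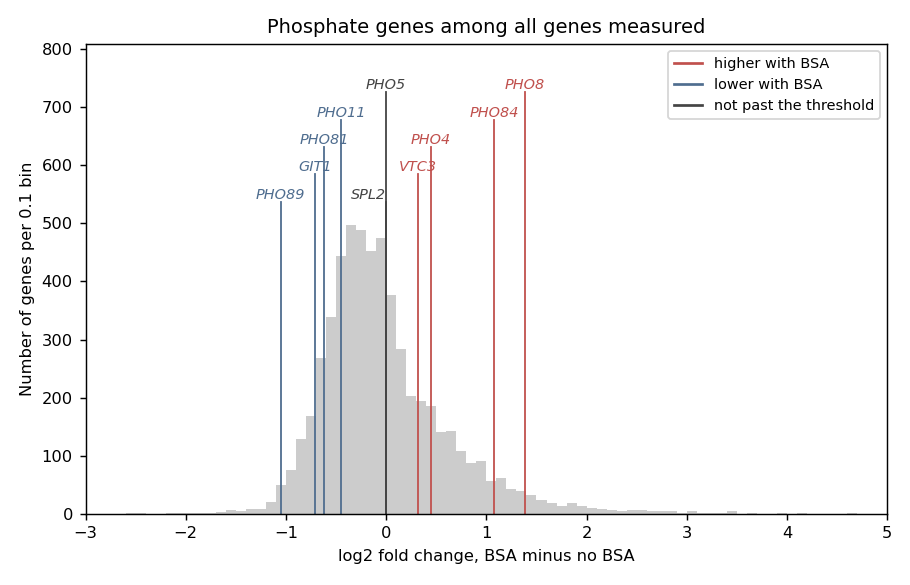
Number of genes (vertical axis, bins of 0.1) by log2 fold change of BSA minus no BSA (horizontal axis) for the 5657 genes, with lines at the 10 phosphate genes. PHO8 (1.39) and PHO84 (1.08) lie in the upper tail, PHO89 (-1.05) in the lower tail, and PHO5 and SPL2 at 0.

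All 8 calls kept their direction and passed limma after cyclic loess, after quantile normalization and with arrays centred in either of 2 ways. Of the 2 uncalled genes, PHO5 and SPL2 were each called higher when arrays were centred on the median of their deviations from the gene means (log2 fold change 0.13 for each, adjusted p = 0.0278 for PHO5 and 0.0376 for SPL2). SPL2 was also called higher after cyclic loess (0.18, adjusted p = 0.00882). That centring moves the median change of all genes from -0.13 to about 0. As deposited, PHO5 and SPL2 lay at about 0, which is 0.13 above the deposited median of all genes. Over all genes, 37.6% of the called genes were higher as deposited, against 50.2% with that centring and 49.0% after cyclic loess, so the sign of changes near 0 depends on the scaling.

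**Figure D3:**
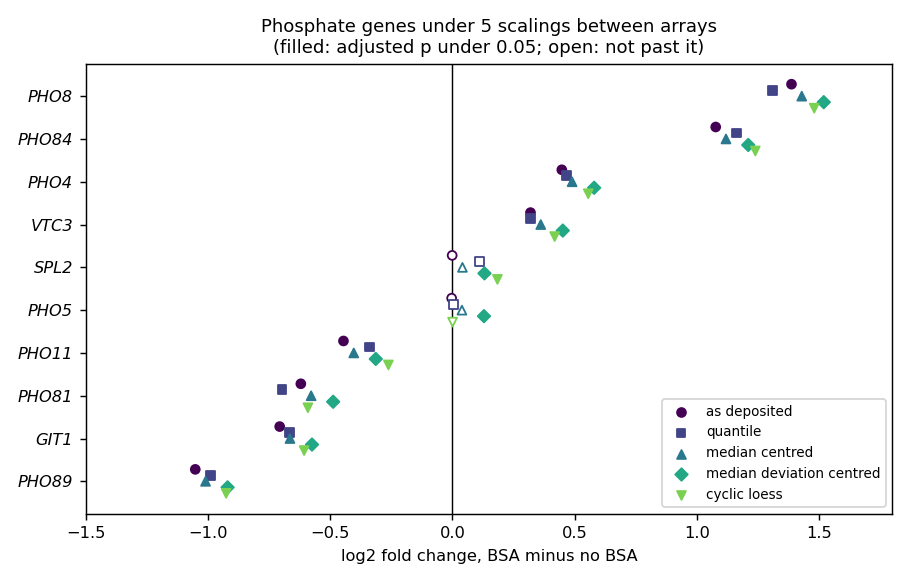
Log2 fold change of BSA minus no BSA (horizontal axis) of the 10 phosphate genes, as deposited and under 4 scalings between arrays. Filled marks passed an adjusted p of 0.05 and open marks did not. The 8 called genes stay on their side of 0, with PHO8 between 1.31 and 1.52 and PHO89 between -1.05 and -0.92, while PHO5 and SPL2 pass only under some scalings.

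The rest of the pathway was mixed in the same way. Of 27 other phosphate genes listed, 26 were measured, PHO12 being the exception. Of these, 9 rose and 9 fell (69.2% called, against 75.4% of all genes), and their median change was -0.032 on the log2 scale, which is 0.10 above that of all genes.

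The genes of the low-affinity transporters fell together. PHO87 and PHO90 encode those of the plasma membrane, and PHO91 encodes a phosphate exporter of the vacuole. PHO91 averaged 7.14 ± 0.053 with BSA and 8.08 ± 0.074 without (SD, n = 3). PHO87 averaged 7.06 ± 0.103 with BSA and 7.93 ± 0.042 without. PHO90 changed by -0.65 ± 0.071 (log2 fold change ± SE), with no overlap between groups in any of the 3 genes (limma adjusted p = 9.80e-06 for PHO91, 1.82e-05 for PHO87 and 0.000102 for PHO90). SYG1, a membrane protein related to phosphate exporters, rose by 0.64 ± 0.059. PHO86, which helps Pho84 leave the endoplasmic reticulum, did not pass (-0.06, 95% interval -0.19 to 0.07, limma adjusted p = 0.361), and was called lower after quantile normalization (adjusted p = 0.0321). SND3, also named PHO88, which acts in protein targeting to the endoplasmic reticulum, fell by 0.28 on the log2 scale (limma adjusted p = 0.00134).

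Genes of enzymes that release phosphate from organic compounds went both ways. GDE1 encodes the phosphodiesterase that splits glycerophosphocholine inside the cell, one of the compounds taken up by Git1. It averaged 7.92 ± 0.131 with BSA and 9.22 ± 0.036 without (SD, n = 3), a fall of 2.48-fold (limma adjusted p = 6.01e-06) at percentile 0.5 of all genes. GIT1 and GDE1, which act one after the other, thus both fell. PHM8, a phosphatase of nucleotides, averaged 9.57 ± 0.159 with BSA and 8.31 ± 0.032 without, a rise of 2.39-fold (limma adjusted p = 1.16e-05). PHM6 and PHM7, also among the other phosphate genes listed, rose by 1.05 ± 0.102 and 0.89 ± 0.052 (log2 fold change ± SE). PHM6 was at 6.49, 6.60 and 6.91 with BSA, against 5.60 to 5.63 in the controls, and its signal was below the first quartile on 5 of the 6 arrays. PHO13, another phosphatase gene, did not pass (-0.08, limma adjusted p = 0.228).

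Of the 8 other genes of polyphosphate metabolism, 2 rose, 3 fell and 3 did not pass (62.5% called, against 75.4% of all genes). VTC1 rose with VTC3, by 0.35 ± 0.063 (log2 fold change ± SE, limma adjusted p = 0.00139). VTC4, the catalytic subunit, rose by 0.18 ± 0.055 (limma adjusted p = 0.0195). VTC4 lost its call without control replicate 2 or 3 (adjusted p = 0.0743 and 0.0864) and with both counted as 1 sample (adjusted p = 0.0775). VTC2, the alternative to VTC3 in the complex, did not pass (-0.12, adjusted p = 0.0718), and was called lower after quantile normalization (adjusted p = 0.0456). VTC5, an accessory subunit, fell by 0.21 on the log2 scale (adjusted p = 0.00614). Its call was lost after quantile normalization (adjusted p = 0.112), centring on the median deviation (0.235) and cyclic loess (0.698). The polyphosphatase genes PPX1 and PPN1 fell, PPX1 by 0.83 and PPN1 by 0.48 on the log2 scale (limma adjusted p = 1.89e-05 and 0.000909), whereas PPN2 (0.15, adjusted p = 0.0562) and DDP1 (0.08, adjusted p = 0.373) did not pass. PPN2 passed as higher under the 4 scalings (adjusted p = 0.00513 to 0.0271), and DDP1 under centring on the median deviation (adjusted p = 0.0342).

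The transcripts of the kinase pair that holds Pho4 in check and of the partner of Pho4 rose. PHO85, the kinase gene, was at 8.92, 9.01 and 8.97 with BSA, against 8.13, 8.17 and 8.15 without. This was a rise of 1.76-fold (limma adjusted p = 7.56e-06) with little spread in either group. PHO80, the cyclin gene, rose by 0.30 ± 0.069 (log2 fold change ± SE, limma adjusted p = 0.00493). PHO2 was at 8.29, 7.89 and 7.66 with BSA, against 6.97, 6.99 and 7.03 without. Its cultures with BSA spread far more than its controls (SD 0.317 with BSA and 0.031 without), but none reached down to them (log2 fold change 0.95 ± 0.142 SE, limma adjusted p = 0.000515). Thus PHO4, PHO2, PHO80 and PHO85 rose while PHO81 fell. Of the genes of inositol pyrophosphate synthesis, whose products are phosphate signals, VIP1 fell by 0.44 on the log2 scale (limma adjusted p = 0.000817) and KCS1 did not pass (95% interval -0.16 to 0.15). PHO92, which binds PHO4 messenger RNA, did not pass (0.12, adjusted p = 0.10), and was called higher under the 4 scalings (adjusted p = 0.00291 to 0.0371).

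**Figure D4:**
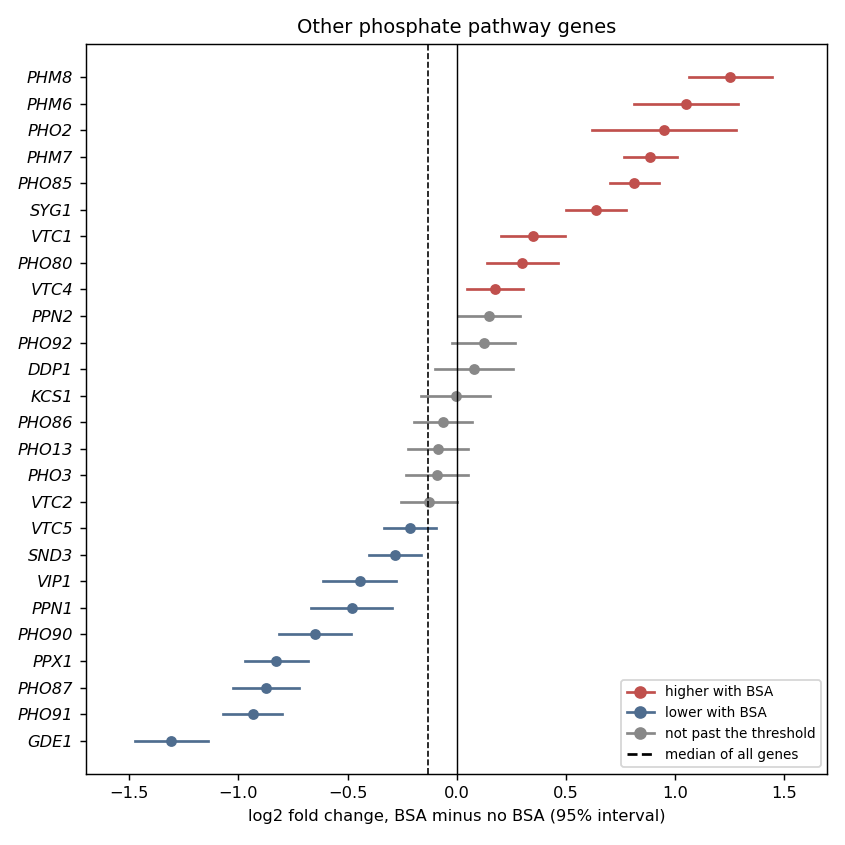
Log2 fold change of BSA minus no BSA with its 95% interval (horizontal axis) for the 26 other phosphate genes measured, ordered by change. The dashed line is the median of all genes (-0.13), and colours give the 9 genes called higher, the 9 called lower and the 8 that did not pass.

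The 3 genes nearest to PHO84 by Euclidean distance over the 6 gene-centred log2 values were SND1 (distance 0.076), PAM16 (0.086) and EMI2 (0.086). Their log2 fold changes were 1.08, 1.09 and 1.04, and this likeness rests mainly on the difference between 2 groups of 3 arrays.

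The SD of the members within a group was 0.0213 to 0.145 with BSA and 0.0263 to 0.165 without, around medians over all genes of 0.0776 with BSA and 0.0608 without. The medians of the arrays were 7.56 to 7.58 with BSA and 7.61 to 7.62 without. Control replicates 2 and 3 were far closer to each other (SD over genes of their difference 0.0567) than the other pairs within a group (0.117 to 0.198). Counting them as 1 sample left 8 of the 10 members called, 4 in each direction, against 69.9% of all genes. The labels call the replicates biological, but how the cultures were started is not stated, and p-values measure only the spread between these samples. CEN.PK 113-7D is a haploid of mating type a, and the a-cell genes MFA1, MFA2 and STE2 were above the first quartile on all 6 arrays, BAR1 was so on the 3 arrays without BSA, and the alpha-cell genes MF(ALPHA)1, MF(ALPHA)2 and STE3 were below it on all 6.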

How the data were processed

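Total RNA of 6 cultures was labelled with a 3' amplification kit and read on Affymetrix arrays, per the labels' protocols. The authors deposited log2 expression values per probe set. The submitters' processing notes name PLIER and R 2.10.1 as the tools. No label or header states the background correction or the normalization between arrays, and base 2 was inferred from the range of values. The deposited annotation pairs probe sets with ORFs, and 5646 of 5657 ORFs matched the gene table of assembly R64, used only for names and neighbours.

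Genes read by several probe sets were represented by the brightest one on average. BSA was compared with no BSA by limma 3.58.1 in R 4.3.3 (lmFit, eBayes, two-sided) over all 5657 genes, with Benjamini-Hochberg adjustment and a threshold of 0.05. The code was tested on simulated data. The named genes are the 10 members, a list of 27 other phosphate genes and the 3 genes nearest to PHO84. The members and lists were chosen with earlier results of these data known. The alternatives were a replicate block, 4 scalings, another variance prior, control replicates 2 and 3 as 1 sample, a filter on dim genes, other rules for probe sets, each array left out, and a threshold of 0.01. No sequencing depth applies to arrays, and their number limits the precision.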

Additional observations from a re-analysis of the deposited data

How the results depend on the processing

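The 8 called members kept their direction and their call under every alternative that kept them, over 14 to 16 alternatives per gene. Without the dimmest 25% of genes, 4 of the members were called, 1 of them lower, because PHO84, PHO89, GIT1, PHO5, PHO11 and SPL2 were then not tested. Of all genes kept there, 78.2% were called. Without probe sets that can share signal, PHO11 was not tested and 7 were called, against 75.5% of all genes kept. PHO5 turned to 0.129 and SPL2 to 0.131 (log2) with arrays centred on the median deviation, and SPL2 to 0.184 after cyclic loess, all 3 past the threshold. Thus 10 members were called with that centring, against 73% of all genes, and 9 after cyclic loess, against 71.9%. With 1 array left out, 8 members were called each time, and 3912 to 4277 of all genes. The same replicate numbers occur in both groups, and the labels state no pairing. Deviations from the group means correlated at 0.103, 0.0187 and 0.0426 for replicates 1, 2 and 3, and not every sample correlated best with its own number. With 3 samples per group, and control replicates 2 and 3 so alike, these correlations cannot settle whether the numbers pair the samples. With the replicate number as a block, 4266 genes and 8 members were called, and of the other phosphate genes PPN2 passed as well (adjusted p = 0.0475). Over all alternatives, 8 to 12 of the other phosphate genes were higher and 8 to 10 lower. PHO92 also passed without BSA replicate 1 (adjusted p = 0.0486) and PPN2 without BSA replicate 2 (0.0481). The limits are 3 arrays per group, no detection calls for dim probe sets, and an unstated normalization.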
